A study of Mus musculus with 58 samples.

Results

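Lyz2, Cd52, Mpeg1, Ly86, Wfdc17, Capn3 and Dock11 are 7 of the 17216 genes with a symbol on the array, and each was read by 1 of its 17856 probe sets. They were selected on measured values, for large rises in the transgenic arrays of this series, and all 7 were found in the deposited table. Their levels were followed over 58 arrays from 30 mice of the C57BL/6J background, all aged 8 months. Transgenic mice (TG) of an Alzheimer's disease model that deposits amyloid in the brain were set beside wild-type mice (WT) of the same background. Per the labels' protocol, the TG mice were made by injecting Thy1 constructs, among them one for mutant amyloid precursor protein, into oocytes of that background. Thy1 expression cassettes are used to drive transgenes in neurons. The labels give no line name. The frontal cortex, which the protocol calls prefrontal, gave 8 arrays of male WT, 8 of male TG, 6 of female WT and 6 of female TG mice. The hippocampus gave 8 male WT, 8 male TG, 7 female WT and 7 female TG arrays. In 28 mice both regions of the same brain were measured. Males and females carry separate ranges of mouse numbers, so sex cannot be told apart from cohort.

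The 7 genes were grouped under phagocyte activation. Phagocytes are the cells that engulf debris and microbes, and in the brain these are mainly microglia. Lyz2 encodes lysozyme M, which cleaves the peptidoglycan of bacterial walls, and is a classic marker of macrophages and neutrophils. Wfdc17 encodes a small secreted protein with a whey acidic protein domain, a fold shared with antiprotease and antimicrobial proteins. Mpeg1 encodes perforin-2, a pore-forming protein of phagocytic compartments with the membrane attack complex and perforin (MACPF) domain. Ly86 encodes MD-1, the secreted partner of the Toll-like receptor homologue CD180. Cd52 encodes a very short glycoprotein on a GPI anchor at the leukocyte surface, where it can engage Siglec receptors. Capn3 encodes a calcium-dependent calpain protease best known from skeletal muscle, and Dock11 an exchange factor that activates the small GTPase Cdc42. Microglia that gather around amyloid plaques raise many lysosomal, lipid-handling and surface receptor genes, a state described in several amyloid mouse models.

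Promoter sequence is printed for Lyz2 and for the 3 genes with an entry in the sequence table that varied most closely with it among the TG hippocampus arrays, to show the windows in which motifs were searched. Each line gives the 150 bases just before the transcription start, 5′ to 3′ on the gene's strand, from RefSeq on GRCm38.p6. Lyz2 lies on the minus strand at chr10:117282273-117282422, Mpeg1 on the plus strand at chr19:12460620-12460769, Ly86 on the plus strand at chr13:37345195-37345344 and Wfdc17 on the plus strand at chr11:83703906-83704055. Capitals mark a match, on either strand, to AGGAAGT or GAGGAA, 2 forms of the purine-rich site that ETS factors such as the myeloid regulator PU.1 bind.
Lyz2: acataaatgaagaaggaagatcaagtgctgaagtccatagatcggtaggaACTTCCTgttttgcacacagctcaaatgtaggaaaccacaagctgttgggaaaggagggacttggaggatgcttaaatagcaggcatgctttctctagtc
Mpeg1: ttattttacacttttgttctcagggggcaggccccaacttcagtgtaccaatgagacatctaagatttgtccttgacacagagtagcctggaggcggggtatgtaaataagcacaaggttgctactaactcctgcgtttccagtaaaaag
Ly86: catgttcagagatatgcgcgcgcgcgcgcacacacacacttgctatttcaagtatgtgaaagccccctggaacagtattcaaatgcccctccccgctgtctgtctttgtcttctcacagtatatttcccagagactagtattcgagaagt
Wfdc17: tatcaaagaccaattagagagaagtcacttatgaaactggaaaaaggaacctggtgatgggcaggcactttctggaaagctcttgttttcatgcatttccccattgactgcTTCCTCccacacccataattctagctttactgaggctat
AGGAAGT and GAGGAA can overlap each other, and both were searched on both strands of the 250 bases before each start. In Lyz2 the match to AGGAAGT lay on the opposite strand and began 100 bases before the start, and 7.69% of all 32851 promoters in the table held one. In Wfdc17 the match to GAGGAA was also on the opposite strand, 39 bases before the start, and 23.3% of promoters held one. Of the 6 genes with an entry, 1 held AGGAAGT and 1 held GAGGAA. None of the 6 held TTGCNNAA, a form of the C/EBP site (9.56% of promoters), TGANTCA, the AP-1 site (6.75%), or TATAAA, the TATA box (12.4%). A match or its lack describes these letters in this window and says nothing about binding.

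The deposited log2 values ran from 2.28 to 13.6, and the median of an array was between 4.73 and 4.85. Thy1, read as a check of the genotype labels, was higher by 1.05 to 1.22 log2 units in the TG groups, and in 3 of the 4 comparisons no TG array overlapped the WT arrays. The exception was the female hippocampus array labelled TG of mouse 7, with Thy1 at 10.92 where the 7 WT arrays started at 10.61 and had a median of 10.85. Mouse App differed by -0.18 to -0.02. By limma's test it was lower in the TG male cortex (-0.18, SE 0.05, adjusted p = 0.00439). It did not pass in the female cortex (-0.15, SE 0.05, adjusted p = 0.0543) or in the hippocampus. The female TG hippocampus array of mouse 4 also stood apart: its mean over 8 hippocampal field markers was 5.50, against 6.79 to 7.54 in all WT hippocampus arrays, and its mean over 6 cortical layer markers was 6.93, against 5.62 to 6.50. Choroid plexus markers varied widely in the hippocampus, with a list mean from 3.89 to 8.79 and a group median of 8.06 in male TG against 4.73 in male WT. Hippocampus results are therefore given with and without these arrays where they matter.

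Levels of the 7 genes are RMA log2 values, and are compared between groups of 1 gene, never between genes. Because the genes were selected on the TG rises, the next values describe that selection and carry no test. In the frontal cortex every TG array lay above every WT array for 6 of the 7 genes in males and all 7 in females. That pattern held for 3.08% of all genes in males and 4.5% in females, and nothing is read from the comparison, since the selection used the same contrast. In the hippocampus 4 genes in males and 0 in females kept the arrays fully apart, where the shares over all genes were 0.68% and 0.197%. The female count rests on the array labelled TG of mouse 7: without it 4 genes were apart, Lyz2, Cd52, Mpeg1 and Ly86, where 0.668% of all genes were. By limma's test (adjusted p under 0.05 over 17216 genes), 8.8% of all genes were higher and 11.7% lower in the TG male cortex, and 8.75% and 10.2% in the female cortex. In the hippocampus the same shares were 1.04% and 0.261% in males and 1.54% and 0.929% in females. Dissected tissue was measured, so more cells of a type and more RNA per cell cannot be told apart for any of these values.

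Lyz2 stood with Cd52 at the top of the 7 genes in the size of the TG difference. In the male cortex its WT arrays ran from 4.34 through a median of 4.99 to 6.41, and its TG arrays from 8.60 through 9.20 to 9.75. In the female cortex the WT arrays ran from 4.44 through 5.39 to 5.91 and the TG arrays from 8.48 through 9.48 to 10.19. The groups were far apart in both sexes, and the mean differences of 4.06 and 4.09 log2 units correspond to 16.7-fold and 17.1-fold. In the male hippocampus WT arrays lay between 4.72 and 5.39 (median 5.20) and TG arrays between 6.57 and 8.48 (median 7.61), 2.46 units higher on average. In the female hippocampus WT arrays lay between 4.85 and 5.95 (median 5.16) and TG arrays between 5.44 and 9.40 (median 8.00), 2.38 units higher. The groups overlapped there only through the array labelled TG of mouse 7, the lowest, while that of mouse 4 was the highest. Without these 2 arrays the difference was 2.48. The order of the group means ran from the TG cortex, 9.43 (SD 0.60, n = 6) in females and 9.19 (SD 0.38, n = 8) in males, through the TG hippocampus, 7.65 (SD 1.37, n = 7) and 7.61 (SD 0.76, n = 8), to the WT groups between 5.12 and 5.34. Within each of these 3 tiers the neighbouring means differed by less than their SD. Lyz1, a near-identical neighbour of Lyz2, was not analysed here, so a share of its signal in the Lyz2 value cannot be told apart.

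Neutrophils also carry Lyz2, and their markers were high in single cortex arrays. The mean over 9 neutrophil markers was 7.45 in the TG female cortex array of mouse 4, where the group median was 3.32. It was 5.28 in the WT male cortex array of mouse 42 and 4.60 in the TG male cortex array of mouse 44, against group medians of 3.42 and 3.44. Mouse 4 had the highest TG female cortex Lyz2 and mouse 42 the highest WT male cortex Lyz2. Without mouse 4 the female cortex difference of Lyz2 was 3.94, and without mouse 42 the male one was 4.25. Over all cortex arrays the neutrophil list had 1 of 9 genes called in females (Elane, higher) and 0 in males, with medians of 0.83 and -0.01. The female median rests on mouse 4: without its cortex array it was 0.04, no gene of the list was called (Elane at 0.27, SE 0.10, adjusted p = 0.0732), and the list mean ran from 3.28 to 3.38 in the other 5 TG arrays against 3.25 to 3.35 in WT. Markers of border macrophages and monocytes stayed near the low end of the scale, with a 9-gene mean between 3.24 and 4.21 over all arrays.

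Wfdc17, the other secreted protein with a link to antimicrobial defence, was read near the low end of the scale in WT mice. Its male cortex arrays ran from 3.50 to 3.94 (median 3.75) in WT and from 4.32 to 5.45 (median 4.84) in TG. Its female cortex arrays ran from 3.68 to 3.91 (median 3.82) in WT and from 4.50 to 6.45 (median 5.24) in TG. The cortex groups did not overlap, and the mean differences were 1.22 in males and 1.61 in females. The female TG cortex was split: mice 4 and 11 stood at 6.39 and 6.45, and the other 4 mice between 4.50 and 5.37. In the hippocampus WT and TG overlapped in both sexes, with ranges of 3.42 to 4.03 and 3.69 to 4.52 in males and of 3.46 to 3.87 and 3.62 to 5.72 in females. Mean differences were 0.46 and 0.73 there, and the latter was 0.57 without mice 4 and 7. No filter on low values was applied. Of the 7 genes only Wfdc17 has a mean level over all arrays, TG included, below the median gene. In WT mice alone, the group means of Cd52 (4.07 to 4.25) and the male cortex mean of Capn3 (4.50) also lay below the lowest array median, 4.73.

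Mpeg1, the pore-forming protein, was measured from 6.27 to 7.07 (median 6.83) in the male WT cortex and from 9.61 to 10.35 (median 9.84) in the male TG cortex. The female cortex gave 6.58 to 7.23 (median 6.86) in WT and 9.23 to 10.51 (median 10.24) in TG. No arrays overlapped, and the mean differences were 3.15 and 3.22 log2 units, or 8.88-fold and 9.33-fold. The hippocampus gave 6.46 to 6.84 (median 6.57) in male WT and 7.63 to 9.31 (median 8.40) in male TG mice, again without overlap. In females it gave 6.35 to 6.84 (median 6.63) in WT and 6.56 to 10.23 (median 8.94) in TG, with only mouse 7 among the WT values. The mean differences were 1.85 and 1.91, the latter 1.97 without mice 4 and 7.

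Ly86, the secreted CD180 partner, ran from 7.06 to 7.97 (median 7.50) in the male WT cortex and from 10.16 to 10.78 (median 10.34) in the male TG cortex. In the female cortex it ran from 7.47 to 7.97 (median 7.66) in WT and from 9.98 to 11.33 (median 10.76) in TG. The cortex groups stood apart by 2.92 units in males and 3.02 in females. Male hippocampus values were 7.44 to 8.01 (median 7.61) in WT and 8.52 to 10.12 (median 9.13) in TG. Female hippocampus values were 7.56 to 8.22 (median 7.77) in WT and 8.05 to 10.83 (median 9.84) in TG. Here too mouse 7 alone fell into the WT range, and the mean differences were 1.61 and 1.65.

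Cd52, the GPI-anchored surface glycoprotein, was between 3.82 and 4.62 (median 4.06) in the male WT cortex and between 7.23 and 8.50 (median 7.82) in the male TG cortex. The female cortex gave 4.16 to 4.41 (median 4.23) in WT and 7.47 to 9.10 (median 8.20) in TG. The groups were separate, by 3.68 units in males and 4.08 in females on average, 12.8-fold and 16.9-fold. Every WT array lay below 4.73, the lowest median of an array, so these folds start near the low end of the scale. In the male hippocampus the ranges were 3.95 to 4.29 (median 4.21) and 5.33 to 7.65 (median 6.49). In the female hippocampus they were 3.67 to 4.54 (median 4.07) and 4.32 to 8.34 (median 6.79), with mouse 7 at 4.32. Mean differences were 2.28 and 2.37, and the SD of the female TG group, 1.39 (n = 7), was 0.93 (n = 5) without mice 4 and 7.

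Capn3 and Dock11, the intracellular protease and exchange factor, behaved alike in 1 respect: their WT levels differed between regions, as tested further on. Capn3 ran from 4.33 to 4.83 (median 4.43) in the male WT cortex and from 5.40 to 6.21 (median 5.89) in the male TG cortex. In the female cortex it ran from 4.67 to 5.19 (median 4.93) in WT and from 5.85 to 6.66 (median 6.14) in TG. No cortex arrays overlapped, with mean differences of 1.35 and 1.24. In the hippocampus WT and TG overlapped, with 5.45 to 6.09 (median 5.59) and 5.57 to 6.54 (median 5.92) in males and 5.35 to 6.14 (median 5.70) and 5.79 to 6.74 (median 6.01) in females. Only 3 of 8 male and 2 of 7 female TG arrays lay above the highest WT array, and both mean differences were 0.36. The 6 highest of the 8 group means, from 6.16 (SD 0.28, n = 6) in the female TG cortex to 5.64 (SD 0.21, n = 8) in the male WT hippocampus, each differed from their neighbour by less than the SD.

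Dock11 ran from 5.37 to 6.30 (median 5.59) in the male WT cortex and from 6.13 to 6.78 (median 6.53) in the male TG cortex. The highest WT array, of mouse 51, overlapped 2 TG arrays, and the next WT array was at 5.80. The female cortex gave 5.45 to 5.90 (median 5.67) in WT and 6.32 to 6.72 (median 6.42) in TG, with no overlap. The mean differences were 0.82 and 0.81, and the male one was 0.91 without mouse 51. In the hippocampus Dock11 ran from 6.67 to 6.96 (median 6.76) in male WT and from 6.65 to 7.02 (median 6.78) in male TG mice, which overlapped almost fully at a mean difference of 0.04. Female hippocampus arrays ran from 6.47 to 7.14 (median 6.64) in WT and from 6.79 to 7.32 (median 6.99) in TG, a mean difference of 0.31. All 4 hippocampus groups, WT included, had higher means (6.71 to 7.01) than both TG cortex groups (6.47 and 6.48).

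**Figure D1:**
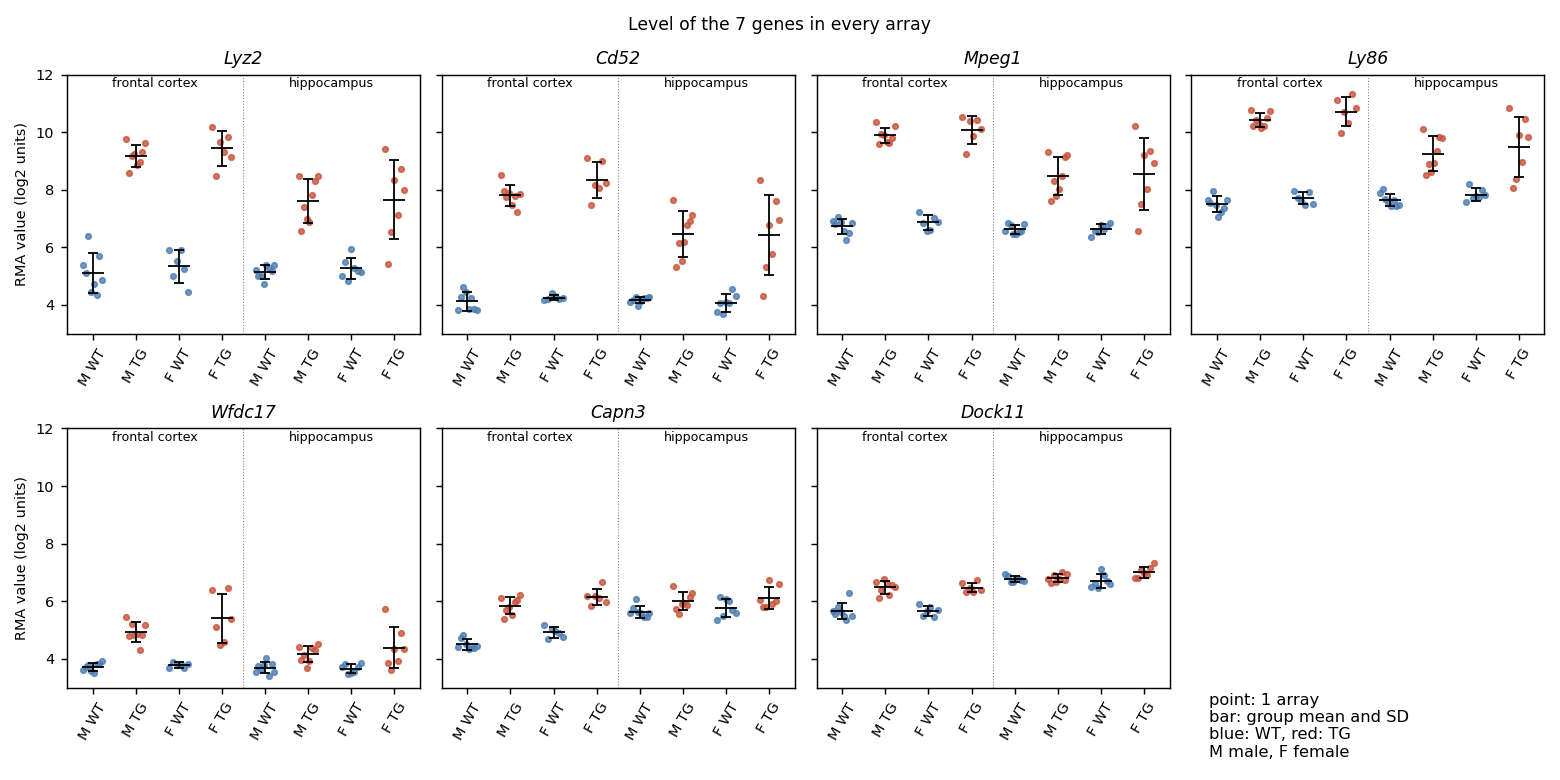
Level of each gene in every array (vertical axis, RMA log2 units) by sex and genotype, with frontal cortex groups to the left of the dotted line and hippocampus groups to the right; points are arrays, bars are the group mean and SD. Lyz2, Cd52, Mpeg1 and Ly86 separate TG (red) from WT (blue) in the cortex, while Dock11 in the male hippocampus differs by only 0.04.

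Whether the TG effect differed between the sexes, the comparison in the study's title, was tested as an interaction within each region. The selection used the same TG and WT arrays, so for the 7 genes these tests are not independent of it. Sex also cannot be told apart from cohort here. None of the 7 genes passed in either region by limma's test, and 0% of all 17216 genes did in the cortex and 0% in the hippocampus (1130 and 842 genes had an unadjusted p under 0.05). In the cortex the difference, female minus male, was 0.03 for Lyz2 (95% interval -0.78 to 0.84), 0.07 for Mpeg1 (-0.39 to 0.53) and 0.10 for Ly86 (-0.36 to 0.56). For Cd52 and Wfdc17 it was 0.40 each, with intervals from -0.16 to 0.96 and from -0.23 to 1.03. These intervals leave room for sex differences of up to 1 log2 unit in Wfdc17. In the hippocampus the intervals were wider, from -1.18 to 1.02 for Lyz2 and from -1.03 to 1.19 for Cd52. They include the arrays of mice 4 and 7: the female TG SD was 1.37 for Lyz2 and 1.39 for Cd52, and 0.90 and 0.93 without them. Without the array of mouse 7 alone the female TG difference was 2.75 for Lyz2 and 2.72 for Cd52, against 2.46 and 2.28 in males. The hippocampal interval that excluded 0 was that of Dock11, at 0.27 (0.02 to 0.52, adjusted p = 0.989). Between WT females and WT males none of the 7 genes passed in the cortex, where 0.157% of all genes did, or in the hippocampus, where 1.02% did. The nearest was Capn3 in the cortex, 0.42 higher in females (SE 0.12, adjusted p = 0.170).

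Whether the TG effect differed between hippocampus and cortex was tested over all 8 groups. The selection used the same TG and WT arrays, so these p-values are those of the fit and are not independent evidence of a region difference. In males Ly86, Capn3 and Dock11 passed, 3 of 7 genes where 1.66% of all genes did. The TG effect of Ly86 was smaller in the hippocampus by 1.31 log2 units (difference -1.31, SE 0.34, adjusted p = 0.0280). For Capn3 it was -0.99 (SE 0.19, adjusted p = 0.00432) and for Dock11 -0.78 (SE 0.14, adjusted p = 0.00150). Lyz2 (-1.60, SE 0.47, adjusted p = 0.0615), Mpeg1 (-1.30, SE 0.37, adjusted p = 0.0542), Cd52 (-1.40, SE 0.43, adjusted p = 0.0765) and Wfdc17 (-0.75, SE 0.28, adjusted p = 0.168) did not pass. In females 1 of 7 passed, Capn3 at -0.88 (SE 0.21, adjusted p = 0.0252), where 1.01% of all genes did. The other 6 lay between -1.72 and -0.51, with adjusted p from 0.0534 for Ly86 to 0.167 for Wfdc17.

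Both regions came from the same brain, so the fit was repeated with the mouse as a fixed block. Then all 7 genes passed in males, with the estimates unchanged and adjusted p from 1.23e-05 for Ly86 to 0.00899 for Wfdc17. In females 6 of 7 passed, with Lyz2 at -1.41 (adjusted p = 0.0136), Cd52 at -1.43 (adjusted p = 0.00462), Mpeg1 at -1.0 (adjusted p = 0.0129), Ly86 at -1.14 (adjusted p = 0.000865), Wfdc17 at -0.83 (adjusted p = 0.0183) and Capn3 at -0.87 (adjusted p = 0.00343). Dock11 did not (-0.51, adjusted p = 0.103). The fixed-block fit takes nothing from the 2 females measured only in the hippocampus, mice 3 and 7. With the mouse as a random block 6 of 7 passed in males and only 3 in females, Capn3, Cd52 and Ly86. Without blocking, leaving out the hippocampus arrays of mice 4 and 7 gave 6 of 7 in each sex, and leaving out mouse 7 alone gave 6 in males and 0 in females. Without mice 4 and 7 the gene that missed was Wfdc17 in males and Dock11 in females. With the choroid plexus mean as a covariate 2 of 7 passed in males, Capn3 and Dock11, and 1 in females, Capn3. The shares over all genes under these alternative fits are not given here. The genes were also selected on TG rises in the same arrays, so nothing is read from the higher counts.

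**Figure D2:**
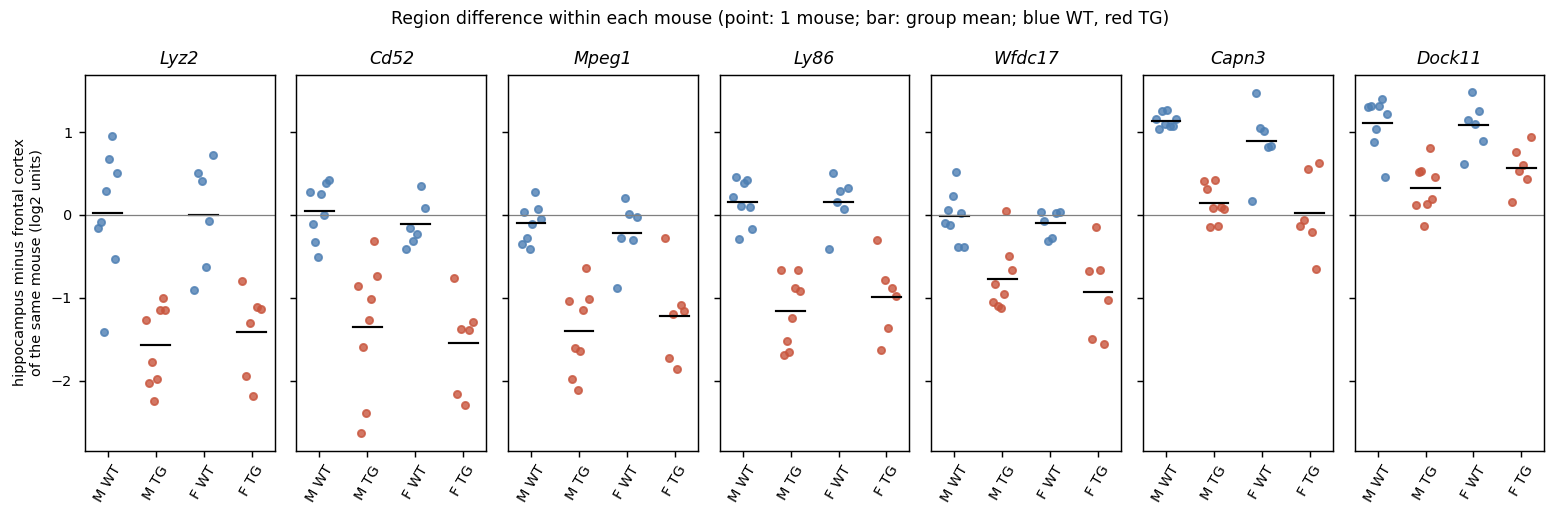
Hippocampus value minus frontal cortex value of the same mouse (vertical axis, log2 units) for each gene by sex and genotype; points are the 28 mice with both regions and bars are group means. Lyz2, Cd52, Mpeg1 and Ly86 lie below 0 in all 14 TG mice, and Capn3 and Dock11 above 0 in all 14 WT mice.

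Within single mice the pattern was as follows. Lyz2 was lower in the hippocampus than in the cortex in 8 of 8 male TG mice, by 1.0 to 2.24 log2 units, and in 6 of 6 female TG mice, by 0.79 to 2.18. Among WT mice it was higher in the hippocampus in 4 of 8 males and 3 of 6 females. Cd52, Mpeg1 and Ly86 were likewise lower in the hippocampus in all 14 TG mice, and Wfdc17 in 13 of 14. Capn3 was higher in the hippocampus in 14 of 14 WT mice but in 8 of 14 TG mice, where its mean difference was 0.14 (SD 0.22, n = 8) in males and 0.02 (SD 0.49, n = 6) in females. Dock11 was higher in the hippocampus in all 14 WT mice and in 13 of 14 TG mice, with a mean of 1.11 (SD 0.32, n = 8) in male WT and 0.33 (SD 0.30, n = 8) in male TG mice.

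The WT mice alone show where these genes stood without the transgenes. Capn3 was higher in the WT hippocampus than in the WT cortex by 1.14 log2 units in males (SE 0.13, adjusted p = 4.42e-10) and 0.84 in females (SE 0.15, adjusted p = 7.94e-06). Dock11 was higher by 1.11 (SE 0.10, adjusted p = 3.13e-14) and 1.04 (SE 0.11, adjusted p = 1.44e-11). These were 2 of 7 genes, where 32.7% of all genes passed in males and 26.6% in females, so the count is close to the background. The other 5 differed by -0.23 to 0.15, with adjusted p of at least 0.648. With the mouse as a block the same 2 passed in each sex. This comparison and the region difference of the TG effect share their WT arrays. For Capn3 in males the cortex means were 4.50 in WT and 5.85 in TG, and the hippocampus means 5.64 and 5.99.

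**Figure D3:**
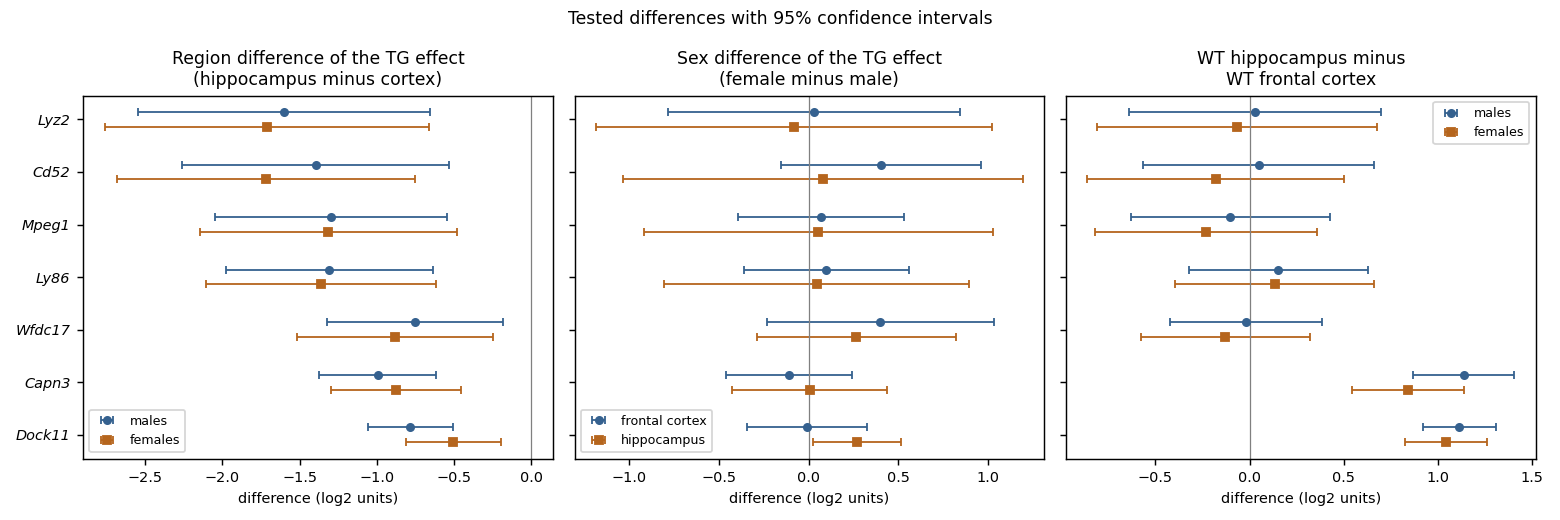
Estimates (points) and 95% confidence intervals (bars) in log2 units for each gene from limma, for the region difference of the TG effect, the sex difference of the TG effect and the WT region difference. The region differences are all below 0, most sex intervals span 0, and only Capn3 and Dock11 differ between WT regions.

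Among TG mice the genes also varied from array to array, which the selection on mean differences did not use. Correlations were taken over deviations from the group mean, with p from 100000 permutations within groups, adjusted over the 6 partners of Lyz2 in each region. The smallest p these can give is 1e-05. Across the 14 TG cortex arrays Lyz2 followed Mpeg1 with Pearson r = 0.94 (adjusted p = 6e-05) and Spearman rho = 0.93 (adjusted p = 6e-05), and r was 0.90 without the 2 arrays farthest from the Lyz2 median. With Ly86 it had r = 0.86 (adjusted p = 0.00123) and rho = 0.81 (adjusted p = 0.00356), and r = 0.76 without those arrays. With Capn3 it had r = 0.76 (adjusted p = 0.00528) and rho = 0.82 (adjusted p = 0.00168), and r = 0.87 without them. With Cd52 r was 0.73 (adjusted p = 0.0130) and rho 0.59 (adjusted p = 0.0484), but r was 0.47 (permutation p = 0.145) without those arrays, so that relation rests on them. With Dock11 r was 0.64 (adjusted p = 0.0145) and rho 0.67 (adjusted p = 0.0204), and without them 0.63 (adjusted p = 0.0630). With Wfdc17 the relation did not pass (r = 0.55, adjusted p = 0.0945; rho = 0.54, adjusted p = 0.0720).

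In the hippocampus 4 of the genes moved closely together across the 15 TG arrays. Lyz2 had r = 0.99 with Mpeg1, 0.98 with Ly86 and 0.98 with Cd52 (adjusted p = 2e-05 for each), with rho from 0.96 to 0.98 at the same adjusted p. With Wfdc17 r was 0.86 (adjusted p = 0.0006) and rho 0.94 (adjusted p = 4.5e-05). The 2 arrays farthest from the Lyz2 median were those of mice 4 and 7, and without them the same 4 values of r were 0.99, 0.98, 0.95 and 0.92. With Capn3 r was 0.58 (adjusted p = 0.0474) and rho 0.63 (adjusted p = 0.0238), and without mice 4 and 7 they were 0.67 (adjusted p = 0.0276) and 0.58 (adjusted p = 0.0670). That call was lost without mouse 7 alone (r = 0.53, adjusted p = 0.0902; rho = 0.55, adjusted p = 0.0718), and in r with array medians made equal (r = 0.56, adjusted p = 0.0578). Dock11 did not follow Lyz2 there (r = 0.29, adjusted p = 0.366; rho = 0.27, adjusted p = 0.378). Over all 21 pairs of the 7 genes the median r was 0.66 in the TG cortex and 0.61 in the TG hippocampus, and 0.73 in the latter without mice 4 and 7. Among WT arrays the median was 0.14 in the cortex and 0.30 in the hippocampus. These pair values are descriptions over arrays that share their group means, with no test. The mean of 14 microglia markers had a range of 7.35 to 8.46 over the TG cortex arrays and of 6.06 to 7.92 over the TG hippocampus arrays, and its part in these relations was not tested.

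**Figure D4:**
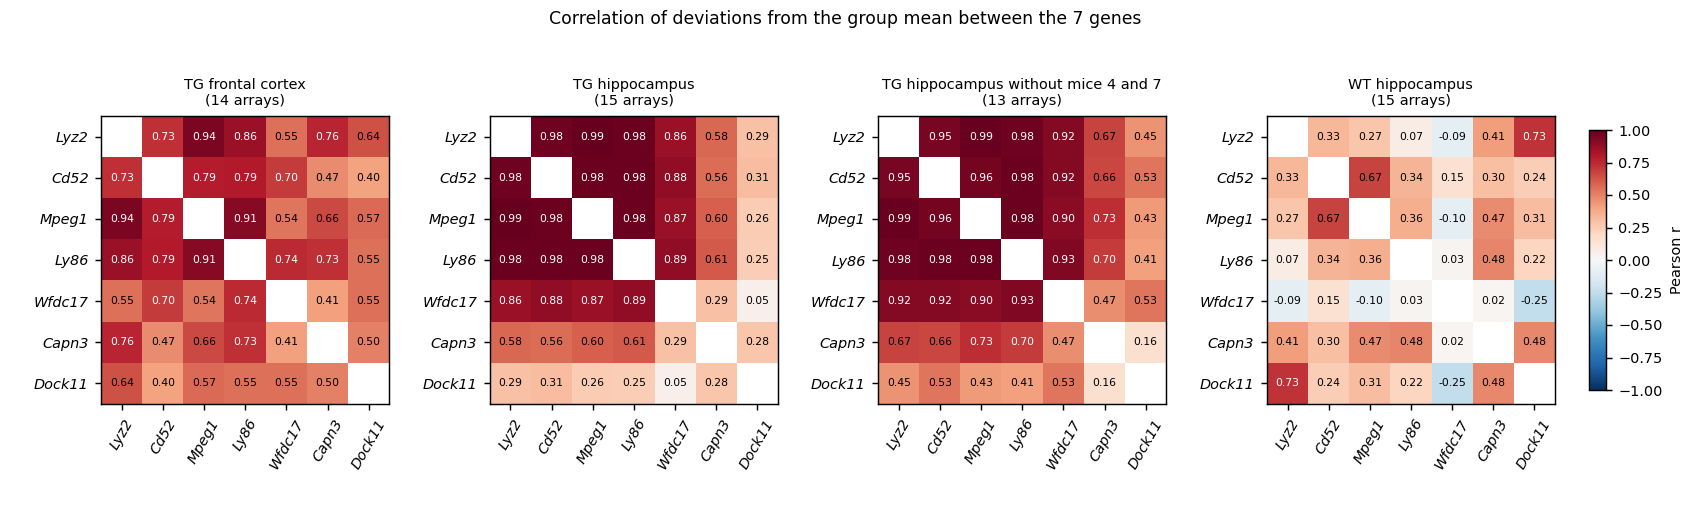
Pearson r (colour and printed value) between deviations from the group mean for each pair of genes, in TG cortex arrays, TG hippocampus arrays with and without mice 4 and 7, and WT hippocampus arrays. Lyz2, Cd52, Mpeg1 and Ly86 form a block with r from 0.98 to 0.99 in the TG hippocampus. Their r ran from 0.73 to 0.94 in the TG cortex and from 0.07 to 0.67 in the WT hippocampus. In the WT cortex, which is not drawn, it ran from 0.10 to 0.83.

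A mouse with high values in 1 region tended to have them in the other for part of the genes. The pairs include mouse 4, whose hippocampus array had cortex-like markers (means of 5.50 for hippocampal fields and 6.93 for cortical layers). Values without mouse 4 alone are not given here. Over the 14 TG mice with both regions, tested for 7 genes, Ly86 had r = 0.91 (adjusted p = 0.00049) and rho = 0.88 (adjusted p = 0.00171) between cortex and hippocampus. Lyz2 had r = 0.90 (adjusted p = 0.00049) and rho = 0.91 (adjusted p = 0.0007), and Mpeg1 r = 0.84 (adjusted p = 0.00121) and rho = 0.82 (adjusted p = 0.00224). Without the 2 mice farthest from the cortex median these r were 0.89, 0.81 and 0.74, with adjusted p from 0.00889 to 0.0247. Which mice these are differs by gene, and for Ly86 and Mpeg1 mouse 4 was not among them. For Cd52 r was 0.67 (adjusted p = 0.0346) and rho 0.54 (adjusted p = 0.0913). Without the 2 mice farthest for Cd52 r was 0.41 (adjusted p = 0.244), so that relation rests on them. Wfdc17 (r = 0.68, adjusted p = 0.0668; rho = 0.67, adjusted p = 0.0499) and Capn3 (r = 0.37, adjusted p = 0.240; rho = 0.36, adjusted p = 0.256) did not pass in r. Dock11 had r = -0.24 (adjusted p = 0.409) and rho = -0.16 (adjusted p = 0.582). Male mouse 40 was the highest TG male in both regions for Lyz2, Cd52, Mpeg1 and Ly86, and mouse 41 the lowest in both for Lyz2, Mpeg1 and Dock11.

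The genes whose deviations from the group means were most like each of the 7 over all 58 arrays were read off as a description. For Lyz2 they were Tyrobp (r = 0.88), Grn (0.88) and Srgn (0.88). For Cd52 they were Trem2 (0.93), Ccl6 (0.93) and Tyrobp (0.92), for Mpeg1 Tyrobp (0.96), Trem2 (0.96) and Ccl6 (0.95), and for Ly86 Tyrobp (0.95), Laptm5 (0.95) and Ctss (0.95). Likeness was lower for the other 3. Wfdc17 was nearest to Parp3 (0.79), Atp1b2 (0.79) and Anxa5 (0.76), Capn3 to Lhfpl2 (0.63), Gng10 (0.62) and Siglech (0.61), and Dock11 to Kctd12 (0.71), Zc3h12c (0.65) and Fhl1 (0.65). Part of these neighbours changed over the 56 arrays without the hippocampus arrays of mice 4 and 7. Lyz2, Cd52 and Ly86 kept the same 3 genes each, with r of 0.81 to 0.82 for Lyz2, 0.87 to 0.89 for Cd52 and 0.92 to 0.93 for Ly86. Mpeg1 was then nearest to Csf1r (0.93), Tyrobp (0.93) and Ctss (0.93), and Wfdc17 to Dhrs1 (0.77), Ms4a6d (0.77) and Parp3 (0.76). Capn3 was nearest to Siglech (0.72), Csf1r (0.67) and Cx3cr1 (0.66), 3 microglial genes, and Dock11 to Kctd12 (0.70), Fhl1 (0.67) and Map3k1 (0.67).

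Relatives, partners and pathway genes listed beside the 7 proteins were followed in 7 lists with 84 measured genes. In the male cortex 14 rose and 6 fell, 23.8% of the 84, with a median change of -0.02, against a median of -0.02 over all genes. In the female cortex 17 rose and 6 fell, 27.4%, with a median of 0.08 against -0.01. In the male hippocampus 2 rose and none fell (2.38%), and in the female hippocampus 6 rose and 1 fell (8.33%). These shares stand beside those over all genes given above for each direction (8.8% and 11.7% in the male cortex), and nothing particular to the lists is read from them.

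Of 14 genes of lipopolysaccharide and Toll-like receptor sensing, listed beside Ly86, 5 rose in the male and 6 in the female cortex, and 1 and 2 in the hippocampus. The lipopolysaccharide co-receptor Cd14 rose by 2.53 (SE 0.14) and 2.91 (SE 0.16) in the male and female cortex, and by 1.12 (SE 0.27, adjusted p = 0.035) and 1.28 (SE 0.29, adjusted p = 0.015) in the hippocampus. The receptor Tlr2 rose by 1.48 (SE 0.15) and 1.84 (SE 0.18) in the cortex and by 0.77 (SE 0.21, adjusted p = 0.040) in the female hippocampus, and was at 0.53 (SE 0.19) in the male. Unc93b1, the chaperone of endosomal Toll-like receptors, rose by 0.57 (SE 0.10) and 0.77 (SE 0.12) in the cortex. Of 8 surface proteins on a GPI anchor, listed beside Cd52, 4 rose in each cortex. The adhesion receptor Cd48 rose by 2.02 (SE 0.16) and 2.05 (SE 0.18), and the interferon-induced tetherin gene Bst2 by 1.78 (SE 0.22) and 2.0 (SE 0.25).

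For the relatives by domain the share of genes called varied from list to list. Of 11 other genes with the Wfdc17 domain, 0 passed in the male cortex and 2 in the female, Wfdc3 at 0.22 (SE 0.07, adjusted p = 0.022) and Wfdc18 at -0.52 (SE 0.16, adjusted p = 0.024). Of 10 other genes of the MACPF family of Mpeg1, 2 fell in both cortices and none rose: Brinp1 fell by 0.25 and 0.33 log2 units and Brinp2 by 0.42 and 0.32, both neuronal genes. Of 15 calpain system genes listed with Capn3, 1 rose and 2 fell in the male cortex and 2 rose and 1 fell in the female. The small regulatory subunit Capns1 rose by 0.18 (SE 0.06) and 0.23 (SE 0.07). Among 15 relatives and GTPase partners of Dock11, 4 rose and 2 fell in the male cortex and 3 rose and 2 fell in the female. Dock2, the leukocyte exchange factor for Rac, rose by 0.94 (SE 0.12) and 1.24 (SE 0.14) in the cortex and by 0.59 (SE 0.13, adjusted p = 0.013) in the female hippocampus. Elmo1, a partner of DOCK proteins, fell by 0.33 and 0.34 in the cortex. Of 11 antimicrobial granule genes listed with Lyz2, none passed in the male cortex and 1 in the female, the neutrophil elastase gene Elane at 0.42 (SE 0.13, adjusted p = 0.021), in the group that holds the array of mouse 4 described above. That list shares Ltf, Camp, Ngp, Elane, Mpo, S100a8 and S100a9 with the neutrophil markers, so it is not a separate result. Its female cortex median was 0.83, and its mean was 7.29 in the array of mouse 4 against a group median of 3.38. Without that array the median was 0.04 and none of the 11 genes passed. Without it the 2 genes with the Wfdc17 domain and the 3 calpain system genes called in the female cortex did not pass either, and 15 of the 84 related genes passed in place of 23.

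**Figure D5:**
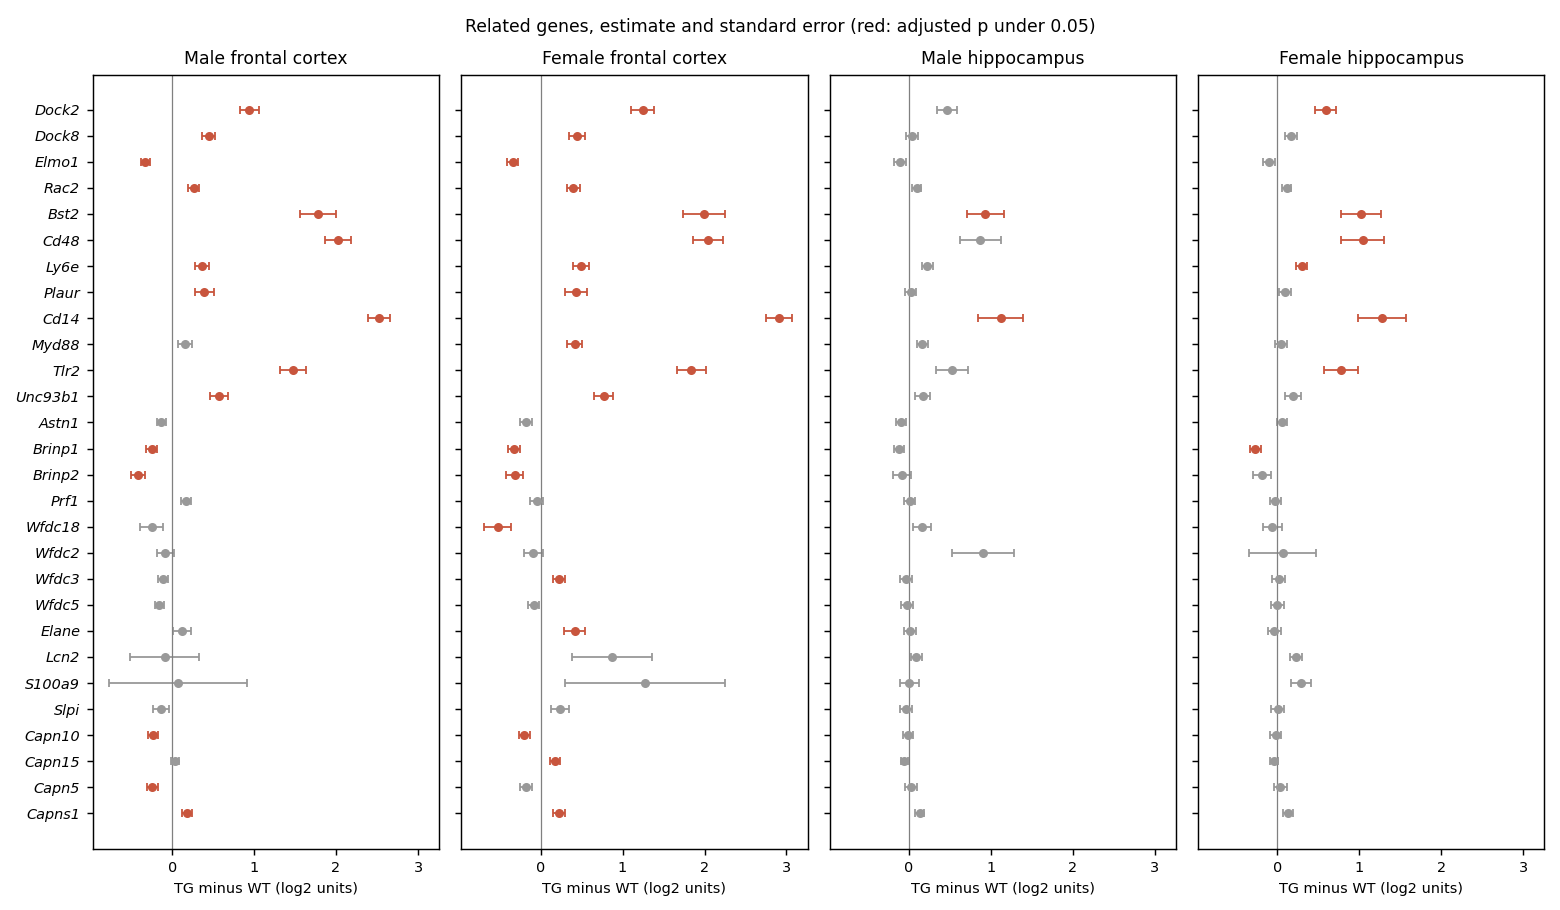
TG minus WT difference (horizontal axis, log2 units) with its standard error for up to 4 genes of each related list, in the 4 comparisons; red points passed at an adjusted p under 0.05. Cd14, Cd48, Bst2 and Tlr2 lie farthest to the right in both cortex panels.

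Cell type markers that moved with the 7 genes were counted in the same fits. Of 14 microglia markers 13 rose in the male cortex, 14 in the female cortex, 9 in the male hippocampus and 10 in the female hippocampus, with medians of 1.75, 1.82, 0.79 and 0.96. The mean of the list ran from 5.88 to 6.38 over all WT cortex arrays and from 7.35 to 8.46 over all TG cortex arrays. Of 14 markers of plaque-associated microglia all rose in both cortices, 10 in the male hippocampus and 13 in the female. Of 6 astrocyte markers 6, 5, 1 and 2 rose in the same order. T and NK cell markers had 1 of 10 called in the female cortex and none elsewhere. Their list mean lay between 3.05 and 3.30 over all arrays. What part of each TG difference of the 7 genes came with these cell types was not tested.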

How the data were processed

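RNA of the frontal cortex and hippocampus was measured on Affymetrix arrays labelled by a 3′ IVT procedure, per the labels' protocols. Per the submitters' processing notes, the deposited log2 values are the authors' RMA output from R 3.2.2, a method that includes quantile normalization. The chip definition file is not named there. Symbols came from the platform annotation: of 17856 probe sets 17216 have 1 gene symbol and 640 have none. The 7 genes, the related and cell type marker lists (together 201 genes, 179 measured) and the tests were chosen with earlier results of these data known.

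The values were used unscaled and unfiltered. Group means were fitted with lmFit and eBayes of limma 3.58.1 in R 4.3.3 (with data.table, version 1.17.8), over the 4 groups of a region, or over all 8 groups for contrasts between regions. Two-sided p-values were adjusted over 17216 genes by Benjamini and Hochberg's method and called at 0.05, and intervals are at 95%. Correlations used 100000 permutations within groups in Python 3.11.15 (NumPy 2.4.6, SciPy 1.17.1, pandas 2.3.3), and figures matplotlib 3.10.9. The fits were tested on simulated data. From each related list up to 4 genes of smallest p over the TG comparisons were named, and for each of the 7 genes the 3 most like it.

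The mouse number pairs arrays of both regions because both came from its brain. Deviations of a mouse's 2 arrays correlated at -0.03 to 0.36 (median 0.11), over 0.1 in 15 of 28 mice. The mouse entered as a fixed block and as a random block (consensus correlation 0.104). The number of arrays limits the precision. Alternatives were equal array medians, quantile normalization, only the genes above the median level, all probe sets, array weights, a trended robust prior, other groups in the fit, fits without mice 4 and 7, and leaving out each array. The choroid plexus mean as a covariate, the correlations and overlap counts without mice 4 and 7, and the neutrophil and granule lists without the cortex array of mouse 4 were added after the data were seen. Further details of the transgene constructs are not reported here.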

Additional observations from a re-analysis of the deposited data

Results flagged for a closer look

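Dock11 in the male WT cortex had 1 array far from the others: mouse 51 stood at 6.30, the nearest of the other 7 arrays at 5.80, and the gap took 0.533 of the group's range. This was 1 of 56 groups of arrays examined over the 7 genes, and chance gives about 1 in 20. The mean over 9 markers of border macrophages and monocytes was 3.75 in that array, the highest of its group, and its part in the Dock11 value was not tested.

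The TG effect differed between hippocampus and cortex by the interaction test of limma for 3 genes in males, Ly86 (-1.31), Capn3 (-0.99) and Dock11 (-0.78), and for Capn3 in females (-0.88). The genes were selected on TG rises in the same arrays. Capn3 and Dock11 were also higher in the WT hippocampus than in the WT cortex, by 1.14 and 1.11 in males, and these comparisons share their WT arrays.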

How the results depend on the processing

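No alternative reversed a difference that passed the threshold in the main fit or in the alternative. Changes of sign where neither fit passed were not counted. Of the log2 differences of single genes 2899 kept their side of the threshold, 82 passed only under an alternative and 14 were lost. All 1046 untested TG differences moved by less than the spread within groups. Leaving out a single array cannot move a mean by that much at these group sizes, and several settings leave the estimate unchanged. Most of these outcomes were therefore fixed in advance, and no stability is read from that count. The sex differences and the WT sex comparison stayed at 0 of 7 genes under every alternative, and the WT region comparison at 2 of 7 in each sex (Capn3 and Dock11). No paired analysis was possible for TG against WT or for the sexes because the groups share no mouse.

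The count of genes whose TG effect differed between regions moved. Shares over all genes under the alternatives are not given here, so these counts have no background to stand beside. From 3 of 7 genes in males and 1 in females it went to 7 and 6 with the mouse as a fixed replicate block and to 6 and 3 with a random replicate block. It went to 7 and 5 with array weights and to 7 and 0 when only the groups compared were fitted. Among genes above the median level it was 5 and 3 of 6. That level was the mean over all arrays, TG included. The WT group means of Cd52, 1 of the genes that passed there in females, were 4.07 to 4.25, below the lowest array median of 4.73. This setting is therefore not independent of the selection on TG rises. Without the hippocampus array of mouse 7 the count was 6 and 0, and without mice 4 and 7 it was 6 and 6. Leaving out single arrays gave 2 to 6 in males and 0 to 6 in females. Capn3 in females was lost without the cortex arrays of mice 2, 4 or 11 or the hippocampus arrays of mice 7, 8 or 10 (adjusted p 0.0526 to 0.0850). Ly86 in males was lost without the cortex arrays of mice 48 or 53 or the hippocampus arrays of mice 39, 41 or 44 (0.0508 to 0.0590).

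Of the 84 related genes 20, 23, 2 and 7 passed in the male cortex, female cortex, male hippocampus and female hippocampus. Leaving out single arrays gave 18 to 21, 15 to 24, 0 to 4 and 2 to 8. Among genes above the median level 11, 14 and 4 of 27 passed in the male cortex, female cortex and female hippocampus. In the male hippocampus the count was 1 with a trended robust prior, 7 with array weights, 4 with all groups in the fit, 4 without mouse 7, 5 without mice 4 and 7, and 0 with the choroid plexus covariate. Of the 6 relations with Lyz2 in the TG cortex 5 passed, and 3 without the 2 farthest arrays. The causes were not tested.

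How far each probe set stood above background was not measured here.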
